A study of Homo sapiens with 6 samples.

Results

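The replication-dependent histone genes make the bulk of the histone proteins that package new DNA, and their RNA was followed here in a poly(A)-selected RNA-seq experiment on H9, a line of primed human embryonic stem cells. Members were the genes of the count table whose symbols start with HIST1 to HIST4 followed by H1, H2A, H2B, H3 or H4, leaving out symbols that end in PS and a number. They came to 76 of 53715 genes: 6 linker H1 genes and 70 core histone genes, of which 17 were H2A, 23 H2B, 15 H3 and 15 H4. The rule kept 6 genes that GENCODE annotates as pseudogenes: the H2B genes HIST2H2BC and HIST2H2BD, which were tested and not called, HIST3H2BA with 34 counts, HIST2H2BA and HIST2H2BB with 0, and the H3 gene HIST2H3DP1 with 1. The 3 groups of 2 libraries each differed in a fluorescein-tagged oligonucleotide given at 25 nM: ASO-L1, an antisense oligo against LINE1 (L1), a large family of transposable elements; sO-L1, a sense oligo of L1; and ASO-Ctr, an antisense oligo with no specific target. Cells of all 3 groups, the controls among them, were also given 0.7 uM ISRIB, which counters the integrated stress response, 5 uM of the caspase inhibitor emricasan and 10 uM of a ROCK inhibitor, all taken off after 24 hours. Fluorescent cells were sorted and collected at 48 hours. The labels name 1 cell line and give no separate cultures or days, so p-values measure the spread between these libraries, which may be technical. For each gene that spread was estimated mostly from all genes tested and less from the gene's own 6 libraries. They also disagree on the medium after transfection, naming mTeSR in 1 place and RSeT in another.

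Core histones H2A, H2B, H3 and H4 form the nucleosome, and linker H1 binds the DNA where it enters and leaves. Most of their genes sit in clusters, lack introns and are read mainly in S phase, when DNA is copied. Their messages are cut just after a short stem-loop at the 3′ end and, unlike other mRNAs, normally carry no poly(A) tail. Stem-loop binding protein holds that end, and the U7 small nuclear ribonucleoprotein guides the cut. When the cut is missed and a poly(A) site further on is used, the message gains a tail, so a poly(A)-selected library samples only some of these transcripts.

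The stem-loop is the element that separates these messages from others, so it is shown for the core genes described below with values that had one. A 16-base stem-loop was found by a script in the GENCODE release 29 transcripts (GRCh38) of 35 of the 76 members. The capitals mark the stem-loop and the lower-case letters the 5 bases on each side, written 5′ to 3′ as DNA.
HIST1H2AC (chr6:26124669-26124684, plus strand): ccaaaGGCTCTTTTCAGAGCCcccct
HIST3H2A (chr1:228457369-228457384, minus strand): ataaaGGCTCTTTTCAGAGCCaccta
HIST1H2AG (chr6:27133515-27133530, plus strand): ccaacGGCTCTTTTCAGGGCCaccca
HIST1H2BD (chr6:26158587-26158602, plus strand): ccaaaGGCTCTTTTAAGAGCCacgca
HIST1H3G (chr6:26270923-26270938, minus strand): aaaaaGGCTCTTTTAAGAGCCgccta
HIST1H4I (chr6:27139654-27139669, plus strand): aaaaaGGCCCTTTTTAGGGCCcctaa
HIST4H4 (chr12:14770724-14770739, minus strand): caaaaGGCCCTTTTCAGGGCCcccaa
The form in HIST1H2AC and HIST3H2A was the most common, in 18 members. The form in HIST1H2BD and HIST1H3G was in 5, that in HIST4H4 in 5, that in HIST1H4I in 3, that in HIST1H2AG in 3, and 1 further form was in HIST1H3E alone. All 8 H4 genes with a match had a stem that opens with GGCCC, and all 27 others opened with GGCTC.

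Library totals were 46223290 and 57899009 counts in ASO-L1, 34665403 and 60999413 in sO-L1, against 18897936 and 67192937 in ASO-Ctr (replicates 1 and 2), so the shallowest library is a control. Levels are given as CPM, the share of a library's counts scaled to counts per 1000000, with library sizes corrected by TMM factors. Mitochondrial genes held 3.79% to 4.24% of the counts. The pluripotency factor POU5F1 had 1130 and 1056 CPM in ASO-L1, 1130 and 1019 in sO-L1, against 1133 and 1007 in ASO-Ctr. The endoderm marker SOX17 and the trophoblast marker CDX2 had 0 to 5 counts in every library. They do not stand for their lists. Of 8 endoderm genes 4 had enough counts to be tested, and of 8 trophoblast and amnion genes 3 had. Among these KRT8 averaged 248.8 CPM in ASO-L1, 239.9 in sO-L1 and 227.6 in ASO-Ctr. The endoderm gene FOXA2 averaged 1.778, 3.828 and 3.412 CPM in the same order. Of the 10 pluripotency genes, SOX2 and SALL4 were called higher and NANOG, DNMT3B, ZFP42 and L1TD1 lower in ASO-L1 against sO-L1. In ASO-L1 against ASO-Ctr 1 was higher and 2 lower, and in sO-L1 against ASO-Ctr 1 was higher. The differences called against sO-L1 were -0.23 to 0.20 on the log2 scale, and 0 of the 10 were called when the replicate number was left out of the model, with 4 at an unadjusted p under 0.05. The collagen gene COL1A1 was higher in ASO-L1, at 77.1 and 72.4 CPM, against 45.6 and 51.1 in the sO-L1 libraries and 42.9 and 54.0 in those of ASO-Ctr (adjusted p = 3.22e-09 and 1.18e-08 by edgeR's quasi-likelihood test, and 0.029 and 0.032 without the replicate number). Of the other 3 tested fibroblast markers THY1 was called lower in ASO-L1 against ASO-Ctr (log2 fold change -0.13, adjusted p = 0.0422, and 0.409 without), and COL1A2 had log2 fold changes of -0.09 against sO-L1 and -0.06 against ASO-Ctr, neither called. The part of cell mixture in the results below was not tested.

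Histone RNA was present in all libraries at a low level. Of the 76 members, 65 had at least 1 count over the 6 libraries, 56 had a count in all 6 libraries, and 53 passed the filter on low counts and were tested. Before TMM scaling the members summed to 108.8 and 103.0 CPM in ASO-L1, 108.7 and 91.2 in sO-L1, against 121.3 and 109.6 in ASO-Ctr. Both ASO-Ctr libraries were highest on that scale, but after TMM scaling the sums were 110.2 and 102.9 CPM in ASO-L1, 110.6 and 90.2 in sO-L1, against 121.6 and 107.3 in ASO-Ctr, and all 3 groups overlapped. In bulk RNA, fewer cells in S phase and less histone RNA per cell cannot be told apart. The number of members detected was 61 and 59 in ASO-L1, 60 and 64 in sO-L1, against 58 and 61 in ASO-Ctr, and at the depth of the shallowest library it would be 57.6 to 59.7 in every one.

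The counts were concentrated in a few genes. HIST1H2AC, an H2A gene, held 21.5% of the 29975 member counts, the top 5 genes held 51.2% and the top 10 held 69.6%. By type, H2A held 37.4%, H2B 31.9%, H4 13.6%, H1 9.86% and H3 7.29%. Tested were 13 of 17 H2A genes, 18 of 23 H2B genes, 4 of 6 H1 genes, 10 of 15 H3 genes and 8 of 15 H4 genes. The 12 members with counts that were not tested had 1 to 48 counts in all, where the lowest tested member, HIST1H3I, had 41, and HIST1H4B was the untested gene with 48. The 23 untested members together had 57 and 41 counts in ASO-L1, 21 and 33 in sO-L1, against 13 and 38 in ASO-Ctr.

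The 11 members with 0 counts were HIST1H1T, HIST1H2AA and HIST1H2BA, whose products are known from the testis, and HIST1H2AD, HIST2H2AA4, HIST2H2BA, HIST2H2BB, HIST2H3A, HIST2H3C, HIST2H4A and HIST2H4B. For a gene with 0 counts the floor of 3 counts was 0.0446 to 0.159 CPM, depending on the library, for counting error only. The 3 testis genes shared no 50-base stretch with another gene, whereas 7 of the 11 shared over 90% of their 50-base stretches with other annotated genes. Over all 11 the median share was 97.1%, against 1.7% in the 65 members with counts. HIST2H3A and HIST2H3C, 2 H3 genes, shared 100% of theirs, and HIST2H4A and HIST2H4B, 2 H4 genes, 97.5% and 97.2%. A count of 0 for a gene with such shared sequence therefore does not show that it was silent. Members with counts can also be affected: HIST1H2AK, HIST2H2AA3, HIST1H3D and HIST1H4K shared 100% of their 50-base stretches and HIST1H2BK 74.1%. How the counting treated reads that fit several genes is not given in the sources used here.

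Levels were also set by annotated 3′ end, dividing CPM by the annotated exon length. Of the 35 members with a stem-loop, 25 had 100 or more annotated bases after it, and these held 60.1% of the counts. The 10 with a stem-loop and a shorter end held 10.1%, and the 41 with no match, among them all 6 H1 genes, many annotated as coding sequence alone, held 29.7%. The share of the first class was 58.8% and 59.1% in ASO-L1, 59.6% and 61.1% in sO-L1, against 61.0% and 61.1% in ASO-Ctr, lowest in both ASO-L1 libraries. HIST1H2AC alone held 6454 of the 18022 counts of this class, so the share follows that gene and does not describe the class as a whole. The part of HIST1H2AC in this order was not tested. Among the 65 members with counts, the median length-scaled level was 1.11 CPM per kb with the longer end, 0.827 with the shorter and 0.715 with no match. The ranges overlapped almost fully, 0.0502 to 14.3, 0.00561 to 8.99 and 0.00649 to 23.9 CPM per kb. The single-gene levels were led by HIST1H2BK at 23.9 CPM per kb, HIST1H2AC at 14.3, HIST1H1C at 13.6 and HIST1H2BD at 8.99. HIST1H2BK is annotated with 381 bases of coding sequence alone and HIST1H1C with 642 bases, against 1668 in HIST1H2AC. A value per kb depends on that length, and its part in this order was not tested. The annotated length after the stem-loop was 1128 bases in HIST1H2AC, 390 in HIST3H2A, 1761 in HIST1H2AG, 212 in HIST1H4I and 39 in HIST1H2BD. That length was measured only in transcripts that hold the stem-loop. HIST1H2BD has 2 annotated transcripts, and the gene runs to chr6:26171349, far past its stem-loop, which ends at 26158602. With 2186 of the 3042 counts of the class with a shorter end, it makes up most of that class.

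**Figure D1:**
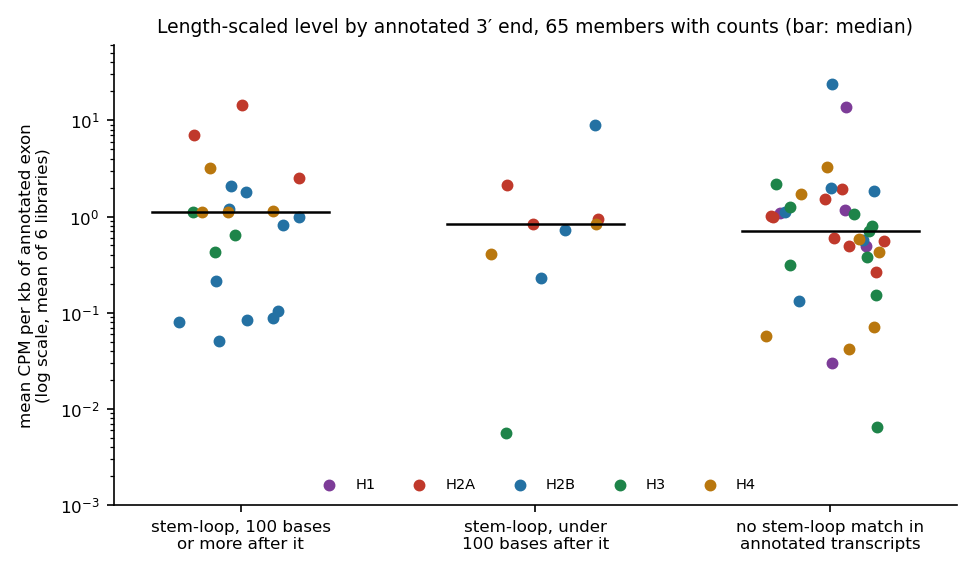
Mean CPM per kb of annotated exon (log scale) of the 65 histone genes with counts, by annotated 3′ end, with histone type by colour and the median as a bar. The medians are 1.11, 0.827 and 0.715 CPM per kb from left to right, and the 3 clouds overlap over most of their range.

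The summed levels of H1 and H2A overlapped between all 3 groups, those of H2B were highest in ASO-Ctr and those of H3 lowest in sO-L1. H1 genes summed to 11.9 ± 0.69 CPM in ASO-L1, 9.89 ± 2.66 in sO-L1 and 10.3 ± 1.84 in ASO-Ctr (SD, n = 2 each). H2A genes summed to 42.3 and 37.0 CPM in ASO-L1, 43.9 and 33.0 in sO-L1, against 49.2 and 39.0 in ASO-Ctr, so all 3 groups overlap. H2B genes summed to 33.1 and 32.4 CPM in ASO-L1 and 34.3 and 29.2 in sO-L1, all below the 38.9 and 35.9 in ASO-Ctr. H3 genes summed to 8.40 and 7.80 CPM in ASO-L1, 7.10 and 6.82 in sO-L1, against 8.54 and 7.65 in ASO-Ctr, with both sO-L1 libraries lowest. H4 genes summed to 14.1 ± 0.14 CPM in ASO-L1, 13.3 ± 0.26 in sO-L1 and 14.6 ± 1.60 in ASO-Ctr, with both ASO-L1 libraries above both of sO-L1. In the H1, H2A, H2B and H3 sums replicate 1 was higher than replicate 2 in every group. Of the 53 tested members, however, only 29 were higher in replicate 1 in ASO-L1, 31 in sO-L1 and 29 in ASO-Ctr. The core sum was 94.7 ± 4.47 CPM in ASO-L1, 90.5 ± 11.8 in sO-L1 and 104.2 ± 8.34 in ASO-Ctr. Without HIST1H2AC all members summed to 85.4 ± 3.25 CPM in ASO-L1, 77.6 ± 8.54 in sO-L1 and 86.7 ± 4.22 in ASO-Ctr. No p is given for a sum, since the members were chosen with results known.

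**Figure D2:**
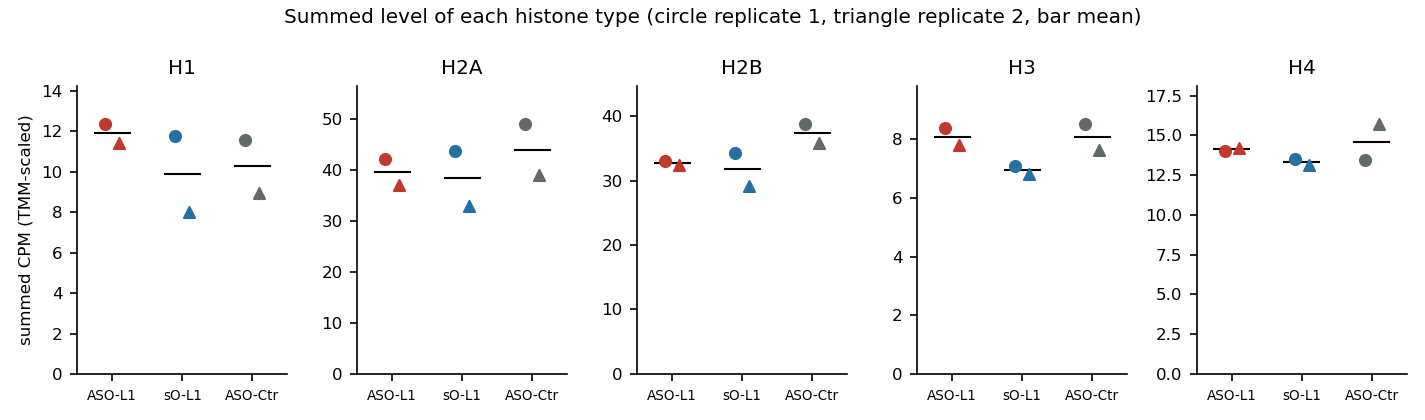
Summed CPM of each histone type in each library (circle replicate 1, triangle replicate 2, bar mean), with axes from 0. The H2B sum is lower in all 4 ASO-L1 and sO-L1 libraries than in the 2 ASO-Ctr libraries, and the H3 sum is lowest in the 2 sO-L1 libraries.

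Few single histone genes were called in any comparison. ASO-L1 against sO-L1 sets the antisense oligo against its sense counterpart. In it HIST3H2A and HIST1H1E were called higher and no member lower, 2 of 53 or 3.77%. Of all 19156 genes tested 23.0% were called (10.4% higher and 12.7% lower). ASO-L1 against ASO-Ctr sets the same cells against a non-targeting antisense oligo. There HIST3H2A rose and HIST1H2AC, HIST1H2BK and HIST1H2AG fell, 4 of 53 or 7.55%, beside 21.5% of all genes (9.88% higher and 11.6% lower). In sO-L1 against ASO-Ctr, the 2 control oligos, HIST1H2AC and HIST1H2BJ were called lower and none higher. That was 3.77% beside 1.74% of all genes (0.673% higher and 1.06% lower). Each group is in 2 of the 3 comparisons, so their calls share libraries. Calls are at a Benjamini-Hochberg adjusted p under 0.05 over all genes tested, from edgeR's quasi-likelihood test with group and replicate number in the model. The labels do not say that a replicate number marks a shared batch. Without the replicate number in the model 0 of the 53 members were called in any comparison, where 1.84%, 1.95% and 0% of all genes were called in the same order; 3, 2 and 3 members then had an unadjusted p under 0.05. With it, 7, 8 and 5 had.

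Depth stands beside these shares. The median SE of a member's log2 fold change was 0.35 in ASO-L1 against sO-L1, against 0.09 over all genes tested. Of the 53 members, 32 had under 250 counts in all, 13 had 250 or more but under 1000, 7 had 1000 or more but under 5000, and 1, HIST1H2AC, had more. Among all genes under 250 counts, 3.89% were called in ASO-L1 against sO-L1, where 1 of the 32 members, HIST1H1E, was. Among all genes of 1000 or more but under 5000 counts the share was 29.1% in that comparison and 26.6% in ASO-L1 against ASO-Ctr, where 1 and 3 of the 7 members were called. An uncalled low member is therefore not shown to be unchanged.

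**Figure D3:**
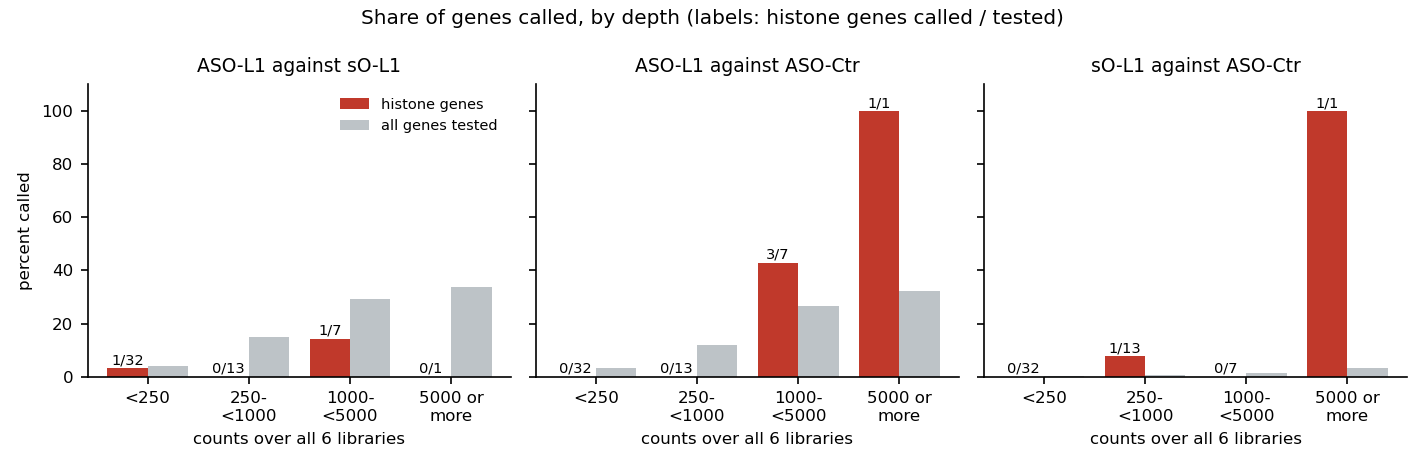
Percent of genes called in each comparison by total counts over the 6 libraries, with histone genes in red and all genes tested in grey; labels give histone genes called over those tested. Under 250 counts 1, 0 and 0 of the 32 histone genes were called in the 3 comparisons, and the called genes sit mostly at 1000 counts or more.

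The direction over all 53 tested members, called ones included, can be described but not tested. In ASO-L1 against sO-L1 the log2 fold change was positive for 37 of 53 members (69.8%), with a median of 0.18, where 49.9% of all genes were positive and 57.0% of genes under 250 counts. In ASO-L1 against ASO-Ctr 24 of 53 were positive, with a median of -0.01. In sO-L1 against ASO-Ctr 12 of 53 were positive (22.6%), with a median of -0.16, beside 49.9% of all genes and 42.7% of genes under 250 counts. Both libraries of ASO-L1 lay above both of sO-L1 for 16 members and below for 1, where 23.6% and 23.4% of all genes did so. ASO-L1 against ASO-Ctr had 12 above and 12 below, beside 23.8% and 24.7%, and sO-L1 against ASO-Ctr had 4 above and 15 below, beside 14.5% and 15.2%.

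**Figure D4:**
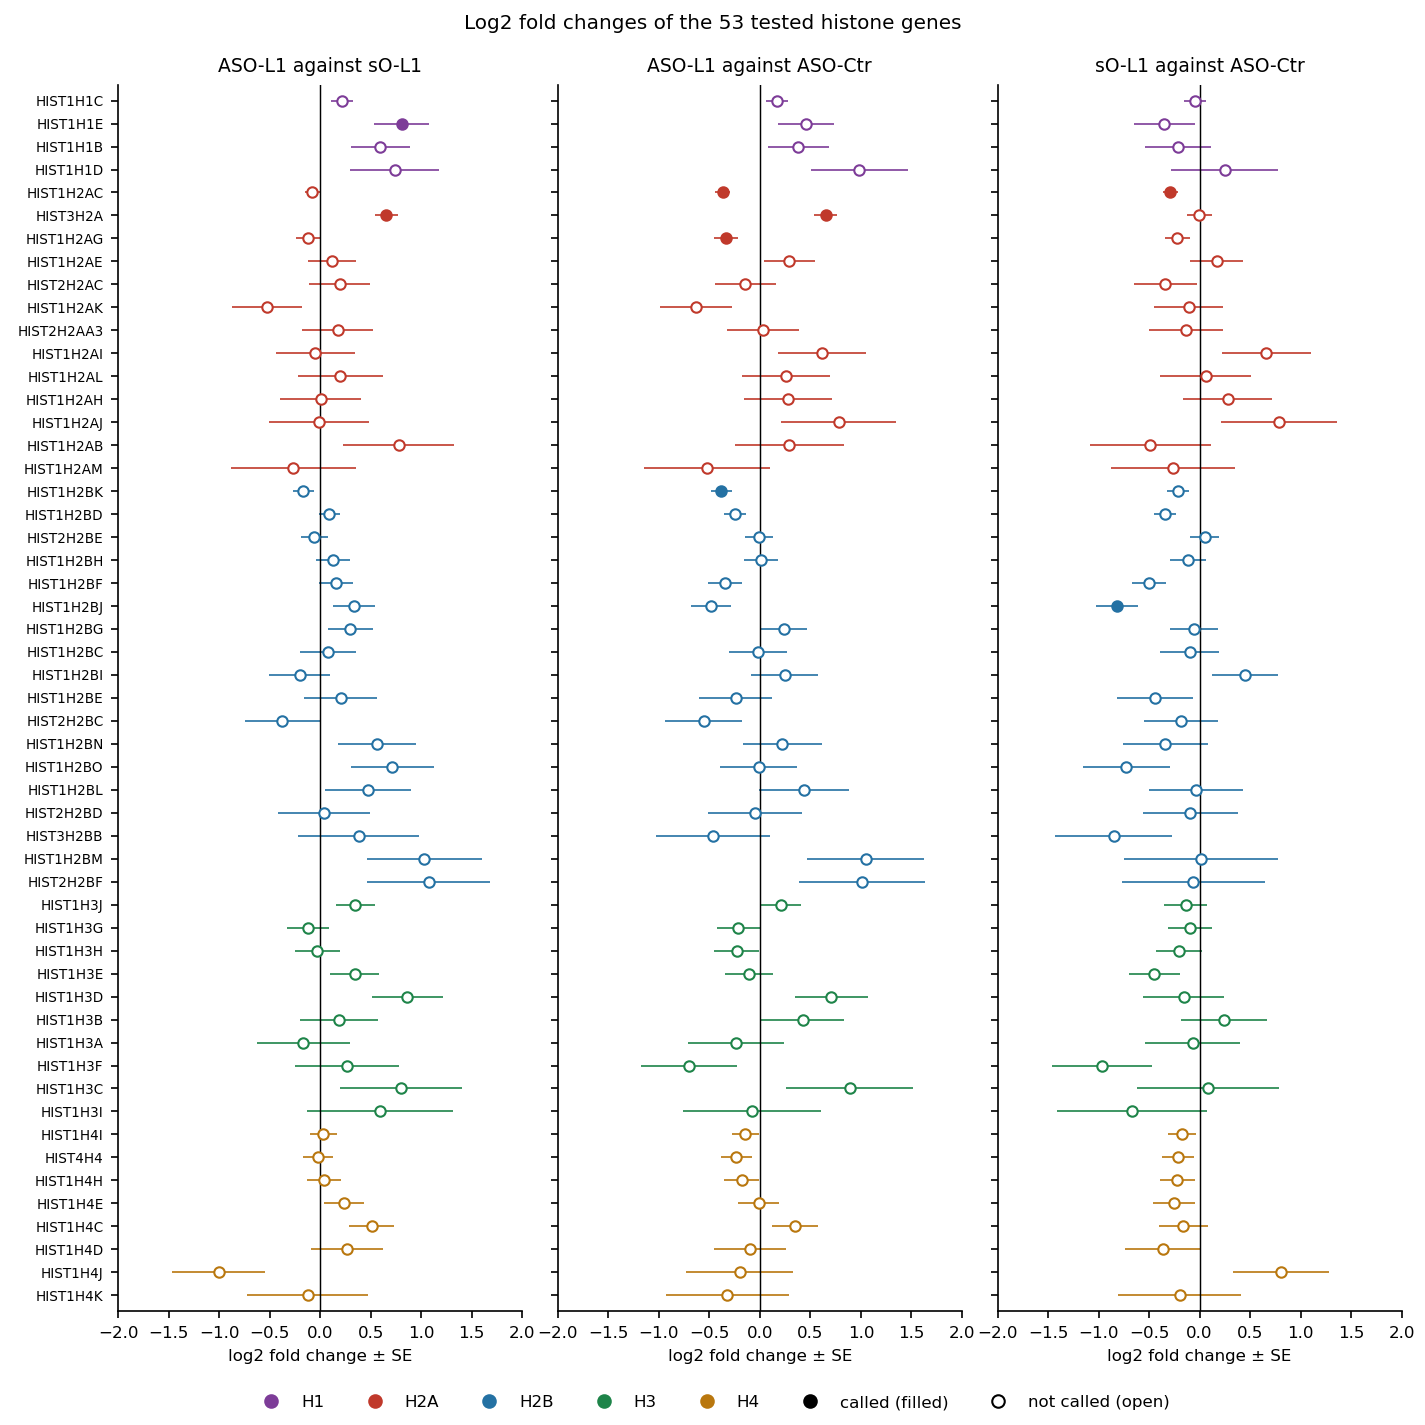
Log2 fold change with its SE for each of the 53 tested histone genes in the 3 comparisons, coloured by type and ordered by total counts within a type; filled points were called. Filled points are 2, 4 and 2 from left to right, and the SE widens down each type as counts fall.

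Of the 4 tested linker H1 genes, HIST1H1E was called higher in ASO-L1 against sO-L1, and none was called in ASO-L1 against ASO-Ctr, in sO-L1 against ASO-Ctr or, in any comparison, without the replicate number. HIST1H1C encodes H1.2 and held 2405 of the 2955 H1 counts. Its level was 9.65 and 9.10 CPM in ASO-L1, 10.0 and 6.595 in sO-L1, against 9.39 and 7.46 in ASO-Ctr. The sO-L1 libraries enclose those of ASO-L1, and no difference was called: the log2 fold change was 0.22 ± 0.10 (SE) against sO-L1, adjusted p = 0.14, and 0.17 ± 0.11 against ASO-Ctr, adjusted p = 0.297. Without the first ASO-L1 library it was called against sO-L1 (log2 fold change 0.41, adjusted p = 0.0203), and without the second sO-L1 library its sign turned (-0.004).

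HIST1H1E, which encodes H1.4, was at 1.18 and 1.11 CPM in ASO-L1, 0.792 and 0.551 in sO-L1, against 0.955 and 0.743 in ASO-Ctr, from 54 and 64, 27 and 34, and 18 and 51 counts. Both ASO-L1 libraries were above the other 4. The gene rose by 0.81 ± 0.27 on the log2 scale against sO-L1, a fold of 1.75, with an adjusted p of 0.026. The adjusted p without the replicate number was 0.198. Leaving out any 1 of the ASO-L1 or sO-L1 libraries ended the call, with adjusted p of 0.0821 and 0.308 without the first and second ASO-L1 library and 0.108 and 0.331 without the first and second sO-L1 library. Against ASO-Ctr the log2 fold change of HIST1H1E was 0.46 ± 0.27 (adjusted p = 0.254).

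The other 2 tested H1 genes were low. HIST1H1B, which encodes H1.5, had 1.10 and 0.743 CPM in ASO-L1, 0.704 and 0.502 in sO-L1, against 0.849 and 0.568 in ASO-Ctr. HIST1H1D, which encodes H1.3, had 0.438 and 0.466 CPM in ASO-L1, 0.235 and 0.292 in sO-L1, against 0.372 and 0.175 in ASO-Ctr. Both ASO-L1 libraries were above both sO-L1 libraries for each gene, and neither difference was called: the log2 fold changes were 0.60 ± 0.29 for HIST1H1B (adjusted p = 0.147) and 0.74 ± 0.44 for HIST1H1D (adjusted p = 0.251). All 4 tested H1 genes had a positive log2 fold change in ASO-L1 against sO-L1, with a median of 0.67, and in ASO-L1 against ASO-Ctr, with a median of 0.42. In sO-L1 against ASO-Ctr 1 of the 4 was positive. HIST1H1A had 7 counts in all and HIST1H1T had 0.

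The H2A genes held the clearest change. HIST3H2A (chr1:228456979-228457873, minus strand, GRCh38), an H2A gene of the small HIST3 cluster, had 9.14 and 7.65 CPM in ASO-L1, 5.93 and 4.80 in sO-L1, against 5.04 and 5.25 in ASO-Ctr. The counts behind these were 417 and 443, 202 and 296, and 95 and 360. Both ASO-L1 libraries stood above all 4 others, and the sO-L1 libraries enclosed those of ASO-Ctr. The gene rose by 0.65 ± 0.11 on the log2 scale against sO-L1 (fold 1.57, adjusted p = 1.09e-05) and by 0.65 ± 0.12 against ASO-Ctr (fold 1.57, adjusted p = 2.57e-05). Both calls held when any 1 library was left out, with a largest adjusted p of 0.0244 against sO-L1 and 0.0023 against ASO-Ctr. Without the replicate number the adjusted p was 0.0695 and 0.0622. In sO-L1 against ASO-Ctr the log2 fold change was -0.0046 ± 0.12, with a 95% interval of -0.25 to 0.24, and its sign turned in several alternatives.

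HIST1H2AC (chr6:26124145-26139116, plus strand) encodes an H2A and had the most counts of all members, 6454. Its level was 22.5 and 19.8 CPM in ASO-L1, 26.9 and 18.6 in sO-L1, against 32.0 and 23.5 in ASO-Ctr. Both ASO-L1 libraries were below both ASO-Ctr libraries, while sO-L1 overlapped each of the other groups. The gene fell by 0.37 ± 0.07 on the log2 scale in ASO-L1 against ASO-Ctr (adjusted p = 0.000159, and 0.364 without the replicate number). Without the first ASO-L1 library the adjusted p was 0.0729. In sO-L1 against ASO-Ctr it fell by 0.29 ± 0.07 (adjusted p = 0.0274, and 1 without the replicate number), although the groups overlapped. That call ended without the first or second sO-L1 library (adjusted p = 0.169 and 0.552) and without the first ASO-Ctr library (0.289). Between ASO-L1 and sO-L1 the log2 fold change was -0.08 ± 0.07, with an interval of -0.22 to 0.07.

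HIST1H2AG (chr6:27133042-27135291, plus strand), another H2A gene, had 5.35 and 4.70 CPM in ASO-L1, 5.87 and 5.02 in sO-L1, against 7.43 and 5.57 in ASO-Ctr. It fell in ASO-L1 by 0.34 ± 0.12 against ASO-Ctr (adjusted p = 0.0385, and 0.378 without the replicate number), with both ASO-L1 libraries below both ASO-Ctr libraries by a small margin. The call ended when any 1 of the 6 libraries was left out: 0.271 and 0.0841 without the first and second ASO-L1 library, 0.0602 and 0.0611 without those of sO-L1, and 0.303 and 0.0558 without those of ASO-Ctr. The other 10 tested H2A genes had 50 to 304 counts, and none was called in any comparison.

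The upstream sequences of the 2 H2A genes with the most counts, which moved in opposite directions in ASO-L1 against ASO-Ctr, are shown as RefSeq gives them for GRCh38.p14, as the 250 bases before the annotated start, 5′ to 3′ on the gene's strand. Capitals mark the CCAAT box (ATTGG on the other strand), the TATA box written as TATAAA, and the octamer ATTTGCAT or its reverse complement ATGCAAAT.
HIST3H2A (chr1:228457874-228458123, minus strand): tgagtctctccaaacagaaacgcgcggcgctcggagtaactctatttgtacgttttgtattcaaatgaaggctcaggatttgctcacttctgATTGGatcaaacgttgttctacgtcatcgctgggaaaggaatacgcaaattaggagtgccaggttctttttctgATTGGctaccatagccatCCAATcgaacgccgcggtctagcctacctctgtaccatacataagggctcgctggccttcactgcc
HIST1H2AC (chr6:26123922-26124171, plus strand): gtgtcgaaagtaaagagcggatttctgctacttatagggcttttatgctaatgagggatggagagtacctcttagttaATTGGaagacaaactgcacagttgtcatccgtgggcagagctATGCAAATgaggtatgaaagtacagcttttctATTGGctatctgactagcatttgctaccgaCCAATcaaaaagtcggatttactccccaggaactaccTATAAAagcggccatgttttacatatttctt
Both windows held 3 CCAAT motifs. HIST1H2AC also had a TATAAA, whose first base lies at -31 from the start, and an octamer at -130. HIST3H2A had neither in these letters. The start of HIST3H2A faces away from that of HIST3H2BB, an H2B gene, 230 bases away, and HIST1H2AG and HIST1H2BJ are a pair of the same kind at 248 bases. HIST1H2AC also has such a neighbour in GENCODE. The H2B gene HIST1H2BC starts at chr6:26123926 on the minus strand, beside the start of HIST1H2AC at 26124145 on the plus strand. HIST1H2BC matched no RefSeq promoter, so that distance was not measured in the same way.

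A RefSeq promoter (250 bases before to 50 after the start) matched 60 of the 76 members, and each motif was searched on both strands. CCAAT was in 50 of the 60 (83.3%, against 34.6% of all 35116 RefSeq promoters), in every H1, H2A, H2B and H3 promoter and in 3 of 13 H4 promoters. TATAAA was in 40 (66.7%, against 11.5%), and the octamer in 20 (33.3%, against 1.77%), in 11 of 16 H2A and 9 of 13 H2B promoters and in no H1, H3 or H4 promoter. The called genes HIST1H2AG, HIST1H2BK and HIST1H2BJ had all 3 motifs, as HIST1H2AC did, and HIST1H1E had the CCAAT and TATA boxes. Windows of genes whose starts face away from each other can overlap. Those of HIST1H2AG (chr6:27132793-27133092) and HIST1H2BJ (chr6:27132746-27133045) are mostly the same DNA. With both strands searched, 1 site can then count for both genes, so the H2A and H2B numbers are not of separate promoters. A match is a description of letters, not of a bound site.

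Among H2B genes, HIST1H2BK was called lower in ASO-L1 and HIST1H2BJ in sO-L1, both against ASO-Ctr, and none was called higher in any comparison. HIST1H2BK (chr6:27146418-27146798, minus strand), the H2B gene with the most counts, had 7.76 and 7.96 CPM in ASO-L1, 10.2 and 7.81 in sO-L1, against 11.7 and 9.30 in ASO-Ctr. It fell by 0.38 ± 0.10 on the log2 scale in ASO-L1 against ASO-Ctr (adjusted p = 0.00544, and 0.27 without the replicate number). The call ended without the first ASO-L1 library (adjusted p = 0.317) or the first ASO-Ctr library (0.0658). Its sequence is shared in large part with other H2B genes, as given above, so the count is uncertain. Against sO-L1 the log2 fold change was -0.17 ± 0.10 (adjusted p = 0.259), and without the second ASO-L1 library that difference was called (-0.38, adjusted p = 0.0298).

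HIST1H2BJ (chr6:27125897-27132750, minus strand) had 1.84 and 1.71 CPM in ASO-L1, 1.91 and 1.05 in sO-L1, against 2.65 and 2.26 in ASO-Ctr. All 4 libraries of the L1 oligos were below both of ASO-Ctr. It fell by 0.82 ± 0.21 in sO-L1 against ASO-Ctr, with a fold of 0.567 (adjusted p = 0.0259, and 1 without the replicate number). That call ended without the first or second sO-L1 library (0.131 and 0.571) and without the second ASO-Ctr library (0.257). In ASO-L1 against ASO-Ctr the log2 fold change was -0.48 ± 0.20 (adjusted p = 0.0716). HIST1H2BD (chr6:26158146-26171349, plus strand) had 8.35 and 6.79 CPM in ASO-L1, 8.10 and 6.21 in sO-L1, against 9.08 and 8.48 in ASO-Ctr. Its log2 fold change was -0.25 ± 0.11 in ASO-L1 against ASO-Ctr (adjusted p = 0.0919) and -0.34 ± 0.11 in sO-L1 against ASO-Ctr (adjusted p = 0.106). Of the 18 tested H2B genes, 11 had a negative log2 fold change in ASO-L1 against ASO-Ctr and 15 in sO-L1 against ASO-Ctr. HIST3H2BB, the neighbour of HIST3H2A, had 12 and 12 counts in ASO-L1, 0 and 19 in sO-L1, against 6 and 25 in ASO-Ctr, too few to set beside its neighbour's rise.

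No H3 or H4 gene was called in any comparison. HIST1H3J had 1.97 and 1.88 CPM in ASO-L1, 1.29 and 1.67 in sO-L1, against 1.70 and 1.68 in ASO-Ctr. Both ASO-L1 libraries were above the other 4, with a log2 fold change of 0.35 ± 0.20 against sO-L1 (interval -0.05 to 0.74, adjusted p = 0.214). Its annotated exons overlap those of the H2A gene HIST1H2AM on the same strand, so reads there cannot be given to 1 of them. HIST1H3G had 1.53 and 1.33 CPM in ASO-L1, 1.91 and 1.28 in sO-L1, against 1.86 and 1.47 in ASO-Ctr, and all 3 groups overlapped. Its log2 fold change was -0.12 ± 0.21 against sO-L1 (adjusted p = 0.738) and -0.22 ± 0.21 against ASO-Ctr (adjusted p = 0.535). The smallest adjusted p of an H3 gene was that of HIST1H3D in ASO-L1 against sO-L1, 0.0702. All 50-base stretches of HIST1H3D occur in 1 other gene, and exons of AL031777.3 cover 100% of its exons on the same strand.

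HIST1H4I had 3.99 and 4.20 CPM in ASO-L1, 3.81 and 4.20 in sO-L1, against 3.93 and 4.92 in ASO-Ctr. The log2 fold change was 0.03 ± 0.13 in ASO-L1 against sO-L1, with an interval of -0.23 to 0.30. HIST4H4, an H4 gene on chromosome 12 outside the clusters, had 2.32 and 3.19 CPM in ASO-L1, 2.49 and 3.13 in sO-L1, against 2.76 and 3.71 in ASO-Ctr. Replicate 2 was higher in every group, the opposite of the H1, H2A, H2B and H3 sums, and the groups overlapped. Its log2 fold change was -0.02 ± 0.15 against sO-L1 (interval -0.33 to 0.29) and -0.23 ± 0.15 against ASO-Ctr (interval -0.54 to 0.08). Of the 8 tested H4 genes, 7 had a negative log2 fold change in ASO-L1 against ASO-Ctr and 7 in sO-L1 against ASO-Ctr, none of them called.

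**Figure D5:**
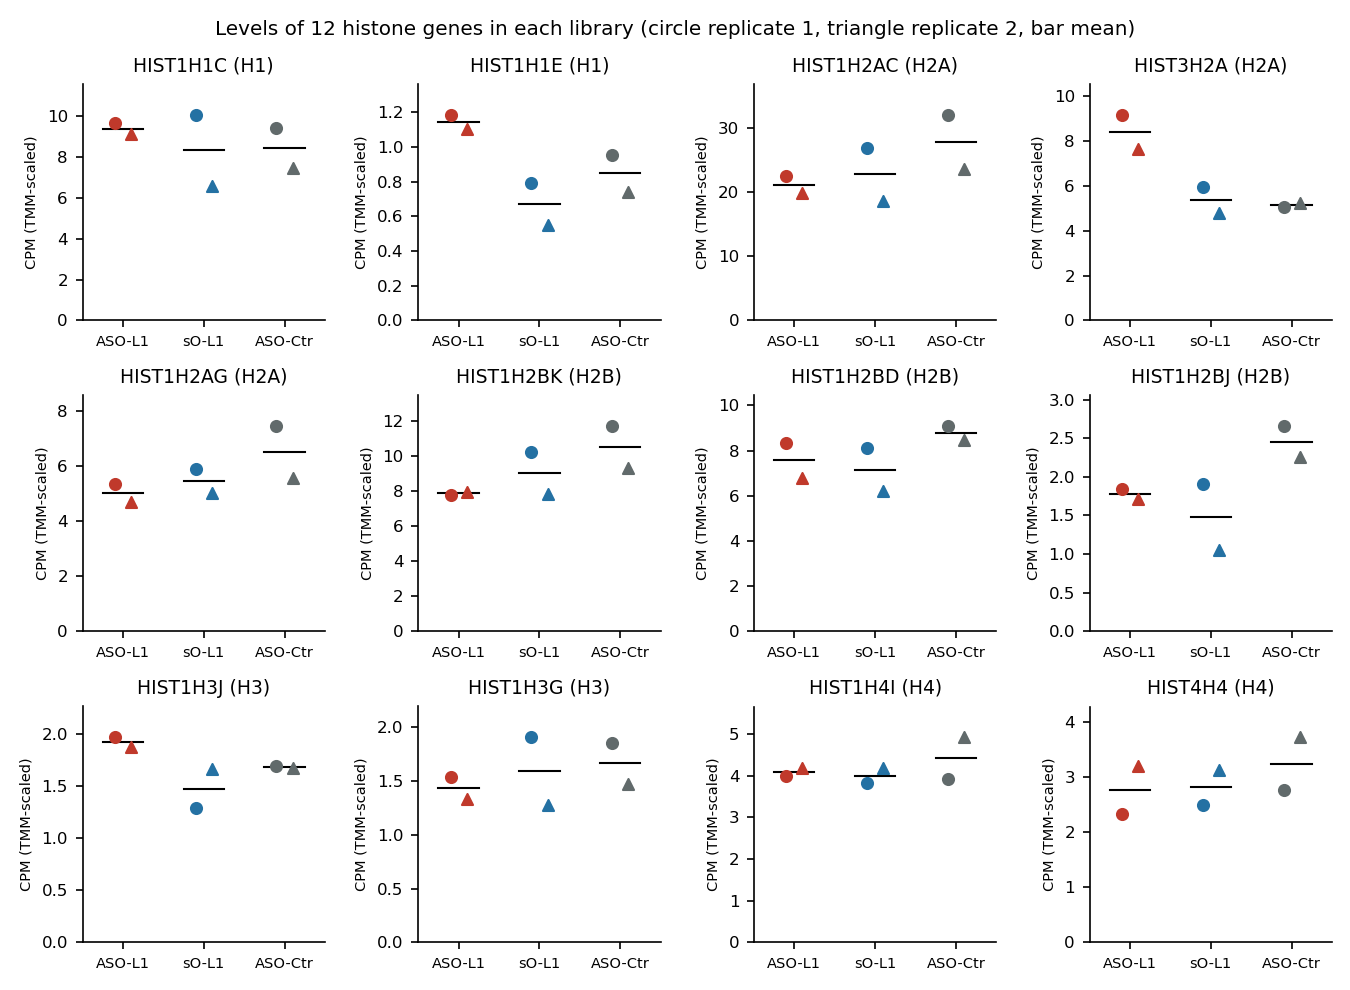
CPM of the 12 histone genes named by rule in each library (circle replicate 1, triangle replicate 2, bar mean), each panel with its own axis from 0. HIST3H2A is at 9.14 and 7.65 CPM in ASO-L1, above the 4.80 to 5.93 of the other 4 libraries, and HIST1H2AC is lower in both ASO-L1 libraries than in both ASO-Ctr libraries.

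Beside the members stand lists of genes that make, finish and place histone RNA and protein, to be read against the 23.0%, 21.5% and 1.74% of all genes called in the 3 comparisons. Depth matters here too, since genes with more counts were called more often. Among all genes with 5000 or more counts the shares were 33.6%, 32.4% and 3.14%. Without the replicate number NCBP2, UNG and GINS2 were the only genes of the 5 lists called in ASO-L1 against sO-L1, UNG the only one in ASO-L1 against ASO-Ctr, and none was in sO-L1 against ASO-Ctr. Replacement histones, which are also made outside S phase and mostly from polyadenylated messages, had 13 of 21 tested. In ASO-L1 against sO-L1 0 were higher and 4 lower: H3F3B and H3F3A, which encode H3.3, H2AFY, which encodes macroH2A, and H1F0, which encodes H1.0. H3F3B was at 527 CPM in ASO-L1 and 615 in sO-L1, a fall of 0.22 ± 0.05 (adjusted p = 0.000276, and 0.218 without the replicate number), and H1F0 at 56.1 CPM in ASO-L1 and 64.97 in sO-L1, a fall of 0.21 ± 0.05 (adjusted p = 0.00179, and 0.183 without). In ASO-L1 against ASO-Ctr 0 were higher and 3 lower, H2AFY, H3F3A and H1F0, and in sO-L1 against ASO-Ctr none was called. H3F3B averaged 558.5 CPM in ASO-Ctr. The list's median was -0.10, -0.08 and 0.03 in the 3 comparisons.

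Of 9 genes of histone transcription, 2 were higher and 2 lower in ASO-L1 against sO-L1, 2 and 1 in ASO-L1 against ASO-Ctr, and 0 and 1 in sO-L1 against ASO-Ctr. The median was 0.08, 0.04 and 0.07. NPAT, the activator of histone genes that cyclin E and CDK2 switch on, was at 47.3 CPM in ASO-L1 and 40.2 in ASO-Ctr, a log2 fold change of 0.23 ± 0.06 (adjusted p = 0.00268, and 0.377 without the replicate number). CCNE1, which encodes cyclin E, was at 54.3 CPM in ASO-L1 and 65.04 in ASO-Ctr (log2 fold change -0.26 ± 0.05, adjusted p = 0.000281, and 0.109 without). POU2F1, which encodes the octamer-binding factor OCT1, was at 145 CPM in ASO-L1 and 124 in sO-L1 (log2 fold change 0.23 ± 0.05, adjusted p = 0.000946, and 0.34 without). In ASO-Ctr POU2F1 was at 144.9 CPM, like ASO-L1, so sO-L1 was the group apart. It was the gene called lower in sO-L1 against ASO-Ctr (log2 fold change -0.22 ± 0.05, adjusted p = 0.0192, and not called without).

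Of 18 genes of histone message processing and turnover, 1 was higher and 2 lower in ASO-L1 against sO-L1, 3 and 1 in ASO-L1 against ASO-Ctr, and none was called in sO-L1 against ASO-Ctr. The median was -0.03, 0.02 and 0.04. NCBP2, a subunit of the cap-binding complex, was at 115 CPM in ASO-L1 and 148 in sO-L1, a fall of 0.36 ± 0.05 (adjusted p = 1.98e-07, and 0.046 without the replicate number). ZNF473, a U7-associated zinc finger protein, was at 23.6 CPM in ASO-L1 and 18.4 in sO-L1, a rise of 0.35 ± 0.07 (adjusted p = 0.000139, and 0.0975 without). SLBP, which encodes the stem-loop binding protein, was not called and had 71.9 and 65.5 CPM in ASO-L1, 77.2 and 65.8 in sO-L1, against 67.1 and 62.8 in ASO-Ctr.

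Of 24 histone chaperones and assembly factors, 3 were higher and 7 lower in ASO-L1 against sO-L1, 5 and 3 in ASO-L1 against ASO-Ctr, and none in sO-L1 against ASO-Ctr, with medians of 0.02, 0.01 and 0.02. Without the replicate number 0 of the 24 were called in any comparison, with 5, 4 and 0 at an unadjusted p under 0.05. Among them ASF1B, a carrier of new H3 and H4, was at 41.1 CPM in ASO-L1 and 48.1 in sO-L1 (log2 fold change -0.23 ± 0.06, adjusted p = 0.00174, and 0.163 without the replicate number), and ANP32E, a chaperone of H2A.Z, at 493 CPM in ASO-L1 and 415 in ASO-Ctr (log2 fold change 0.25 ± 0.05, adjusted p = 6.06e-05, and 0.129 without).

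Genes of S phase, the time when histone genes are read, had 10 of 25 lower and 0 higher in ASO-L1 against sO-L1, 4 lower and 0 higher in ASO-L1 against ASO-Ctr, and none called in sO-L1 against ASO-Ctr. Without the replicate number these became 2, 1 and 0 lower. The median was -0.09, -0.04 and 0.04, where that of all genes tested was between -0.002 and 0. The DNA repair glycosylase gene UNG was at 168 CPM in ASO-L1 and 228 in sO-L1, a fall of 0.44 ± 0.05 (adjusted p = 3.56e-10, and 0.0177 without the replicate number). The helicase subunit gene GINS2 was at 59.7 CPM in ASO-L1 and 84.1 in sO-L1, a fall of 0.49 ± 0.05 (adjusted p = 2.82e-10, and 0.0247 without). The sum of the 25 genes was 4933 and 4836 CPM in ASO-L1, 5342 and 5120 in sO-L1, against 5213 and 4864 in ASO-Ctr. Both ASO-L1 libraries were below both of sO-L1 in that sum, and the part of these genes in the histone values was not tested.

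Other RNAs that normally have no poly(A) tail, such as small nucleolar and small nuclear RNAs, were also summed. The 924 genes of this list, 88 of them tested, summed to 94.99 and 86.9 CPM in ASO-L1, 76.0 and 82.4 in sO-L1, against 78.5 and 83.0 in ASO-Ctr. Both ASO-L1 libraries were above the other 4. In ASO-L1 against sO-L1 0 of the 88 were called, with 2 at an unadjusted p under 0.05 without the replicate number. In ASO-L1 against ASO-Ctr 4 were higher and 1 lower, and in sO-L1 against ASO-Ctr 0 were called. The median log2 fold change was 0.18, 0.22 and 0.05. Over all genes tested it was -0.001, -0.002 and 0, and over genes under 250 counts 0.089, 0.006 and -0.088. RPPH1, the RNA of ribonuclease P, was at 1.81 CPM in ASO-L1 and 1.148 in ASO-Ctr (log2 fold change 0.75 ± 0.24, adjusted p = 0.0159, and 0.375 without the replicate number). RN7SK, an abundant nuclear RNA, overlapped between all 3 groups, at 1.14 and 0.881 CPM in ASO-L1, 1.58 and 0.567 in sO-L1, against 1.38 and 0.583 in ASO-Ctr. The part of tail-less RNA in the histone values was not tested.

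The authors' deposited table of ASO-L1 minus sO-L1 held 38 of the 76 members. The authors' deposited table gives 2 of the 38 as higher in ASO-L1 at an adjusted p under 0.05 and 0 as lower, beside 23.2% of its 16753 genes. In the authors' deposited table HIST3H2A had a log2 fold change of 0.67 (adjusted p = 0.000113) and HIST1H1E of 0.81 (adjusted p = 0.0394). All 38 had the same sign in the authors' deposited table as in the fit above, which starts from the same libraries.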

How the data were processed

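Poly(A) RNA of 6 H9 libraries was sequenced after a directional kit, per the labels' protocols. The submitters' processing notes list Trim Galore 0.4.0, TopHat2 2.0.13, the build hg19 and featureCounts from Subread 1.5.0. Values of the deposited count table are whole, unnormalized counts for each gene symbol, and its name says that the authors took out duplicates; strand setting and treatment of shared reads are not given in the sources used here. Duplicate removal can lower the counts of short, highly expressed genes. The authors' deposited log2 values are normalized and, by the table's name, batch-corrected, with the batches not given, and served only to check the column names. The authors' deposited comparison table gives p-values and log2 fold changes for 1 comparison.

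The header of the count table sits 1 cell to the left of its values, so columns were taken by number. Each agreed best with the library of its name in the log2 table (6 of 6, correlation 0.911 to 0.952). Of 53807 entries, 92 spike-ins were left out, and 19156 of 53715 genes passed filterByExpr (minimum count 10, minimum total 15).

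Counts were scaled by TMM and fitted for all 6 libraries with edgeR 4.0.16 in R 4.3.3 by its robust quasi-likelihood test. Group and replicate number were in the model, which left 2 residual degrees of freedom. The spread pooled over all genes tested added a median of 45 prior degrees of freedom. Adjustment was by Benjamini-Hochberg over all genes tested, with calls at an adjusted p under 0.05. The pipeline was tested on simulated data. CPM was computed from the deposited counts. SD is over the 2 libraries of a group. Intervals are 95% and, like floors, cover counting error and the spread between these libraries only. The members, lists and tests were chosen with earlier results of these data known. Named members were those called in at least 1 comparison and the 2 of each type with the most counts, with up to 3 called genes of each list and comparison, of which the text gives some. Alternatives were DESeq2 1.42.0, limma-voom (limma 3.58.1), other scalings and filters, no replicate number, 4 libraries, each library left out and an adjusted p under 0.1. Coordinates and exon lengths are of GENCODE release 29 (GRCh38), which is not the build of the counts, and promoters are of RefSeq (GRCh38.p14). All 76 members matched GENCODE by symbol.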

Additional observations from a re-analysis of the deposited data

How the results depend on the processing

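The counts of called histone genes depend most on the replicate number. Without the replicate block the 2 genes higher in ASO-L1 against sO-L1, the 1 higher and 3 lower in ASO-L1 against ASO-Ctr and the 2 lower in sO-L1 against ASO-Ctr each became 0. Differences between replicates 1 and 2 had correlations over all genes of 0.278 between ASO-L1 and sO-L1, 0.191 between ASO-L1 and ASO-Ctr and 0.258 between sO-L1 and ASO-Ctr, and over the members of -0.03, 0.22 and 0.07; all 3 over all genes are above 0.1 and the authors' deposited log2 table is batch-corrected by its name, but no label says that a number marks a batch. DESeq2 gave 1 higher in ASO-L1 against sO-L1, 1 lower in ASO-L1 against ASO-Ctr and 0 lower in sO-L1 against ASO-Ctr, but its adjusted p is NA for HIST1H1E in the first and for HIST1H2AC and HIST1H2BJ in the last, so these are not lost calls; HIST1H2BK (adjusted p = 0.0709) and HIST1H2AG (0.205) were lost. Limma-voom gave 0 lower in sO-L1 against ASO-Ctr, with adjusted p of 0.06 for HIST1H2AC and 0.0651 for HIST1H2BJ, and lost HIST1H2AG (0.0767), as did no filter (0.0749) and the 4 libraries compared (0.0552). An adjusted p under 0.1 gave 4 higher in ASO-L1 against sO-L1 and 5 lower in ASO-L1 against ASO-Ctr. With each library left out, the counts were 1 to 3 higher and 0 to 1 lower in ASO-L1 against sO-L1, 1 to 2 higher and 0 to 2 lower in ASO-L1 against ASO-Ctr, and 0 to 2 lower in sO-L1 against ASO-Ctr; the spread of a group with 1 library left was taken from the other groups. The cause of these moves was not tested. The type sums moved by less than 1 SD under other scalings, chosen after seeing the data; leaving out 1 of 2 libraries moves a mean by less than 1 SD by construction.

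Signs turned only in differences that were not called. In sO-L1 against ASO-Ctr the log2 fold change of HIST3H2A was 0.043 without the replicate block, 0.003 with the 4 libraries compared and -0.11 to 0.22 with each library left out. With each library left out, ASO-L1 against sO-L1 ranged from -0.004 to 0.41 for HIST1H1C, -0.23 to 0.071 for HIST1H2AC, -0.003 to 0.17 for HIST1H2BD, -0.021 to 0.67 for HIST1H2BJ, -0.38 to 0.015 for HIST1H2BK, -0.29 to 0.027 for HIST1H3G, -0.033 to 0.12 for HIST1H4I and -0.10 to 0.025 for HIST4H4. ASO-L1 against ASO-Ctr ranged from -0.06 to 0.34 for HIST1H1C and -0.22 to 0.006 for HIST1H4I. The ranges in sO-L1 against ASO-Ctr were -0.23 to 0.19 for HIST1H1C, -0.22 to 0.087 for HIST1H3G and -0.41 to 0.004 for HIST1H3J. The calls of HIST3H2A in the ASO-L1 comparisons held under each alternative run except the fit without the replicate block. Depth limits the rest: 32 of the 53 tested members had under 250 counts in all.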

Other observations

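The symbols ending in PS and a number, left out by the rule, included 2 with enough counts to be tested. HIST1H2APS4, annotated as an H2A pseudogene, had 38 and 47 counts in ASO-L1, 38 and 65 in sO-L1, against 12 and 65 in ASO-Ctr, 265 in all, which is more than 32 of the 53 tested members. HIST1H1PS1 had 39 counts in all, and the other 11 such symbols had 0 to 23.

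Marker lists of other cell types gave these sums. The 8 neuroectoderm genes, 6 of them tested, summed to 363 and 375 CPM in ASO-L1, 358 and 352 in sO-L1, against 338 and 323 in ASO-Ctr, nearly all of it NES. LHX2 was called higher in ASO-L1 against both other groups, and NES higher and DCX lower against ASO-Ctr alone. The 8 mesoderm genes, 7 tested, summed to 119 and 129 CPM in ASO-L1, 105 and 110 in sO-L1, against 124 and 129 in ASO-Ctr, most of it KDR. KDR was called higher in ASO-L1 against sO-L1 and lower in sO-L1 against ASO-Ctr. EOMES was called higher in ASO-L1 against both other groups, at 0.736 CPM, against 0.327 in sO-L1 and 0.182 in ASO-Ctr. The 8 endoderm genes, 4 tested, summed to 6.34 and 4.61 CPM in ASO-L1, 9.21 and 6.43 in sO-L1, against 8.60 and 6.02 in ASO-Ctr, with FOXA2 lower in ASO-L1 at 1.78 CPM, against 3.83 in sO-L1 and 3.41 in ASO-Ctr (adjusted p = 2.91e-07 and 3.16e-05 by edgeR's quasi-likelihood test, and 0.0213 and 0.0428 without the replicate number). The 8 trophoblast and amnion genes, 3 tested, summed to 275 and 243 CPM in ASO-L1, 258 and 244 in sO-L1, against 240 and 237 in ASO-Ctr, nearly all of it KRT8. VTCN1 was called lower in ASO-L1 against ASO-Ctr, at 0.202 and 0.591 CPM. Without the replicate number no gene of the neuroectoderm, mesoderm or trophoblast and amnion lists was called in any comparison. The 8 fibroblast genes, 4 tested, summed to 398 and 396 CPM in ASO-L1, 381 and 391 in sO-L1, against 393 and 400 in ASO-Ctr. The 10 pluripotency genes summed to 9703 and 9637 CPM in ASO-L1, 10190 and 9752 in sO-L1, against 10020 and 9493 in ASO-Ctr.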
